A study of Arabidopsis thaliana with 6 samples.

Results

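The genes described here are 10 regulators of the leaf iron deficiency response, taken by AGI locus code from the 28387 genes of the deposited table. They are the transcription factor genes BHLH38 (AT3G56970), BHLH39 (AT3G56980), BHLH100 (AT2G41240) and BHLH101 (AT5G04150), the peptide genes IMA1 (AT1G47400), IMA2 (AT1G47395) and IMA3 (AT2G30766), the repressor gene PYE (AT3G47640), the ubiquitin ligase gene BTS (AT3G18290) and the transporter gene OPT3 (AT4G16370). All 10 were measured. Their levels were compared between atpip1;2-1, an Arabidopsis thaliana line with a T-DNA insertion in the plasma membrane aquaporin gene PIP1;2, and the wild type N-60000. Each line had 3 Affymetrix arrays of leaf RNA from greenhouse plants at 3 weeks of age, grown in 12 h of light per day, and each array held a pool of 5 plants. The labels name 1 insertion line, and describe no complemented line. The sources used here do not give the iron supply of the plants.

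Iron limits chlorophyll synthesis and photosynthetic electron transport, and leaves report their iron status to the root. When iron runs short, bHLH factors of subgroup IVc switch on the subgroup Ib genes BHLH38, BHLH39, BHLH100 and BHLH101, together with PYE, BTS and the IMA peptide genes. BTS is a hemerythrin E3 ligase that marks IVc factors for degradation, and the IMA peptides bind BTS and hold it back, so that the response is kept in balance. OPT3 loads iron into the phloem, and plants that lack it signal deficiency even when their leaves contain iron.

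In the insertion line 9 of the 10 regulators had a higher mean than in the wild type, by small amounts, and none passed the test over all genes. The median log2 fold change of the 10, mutant minus wild type, was 0.18, against -0.01 over all genes, of which 48.4% were higher in the mean. By mean level the 10 lay between percentiles 71.6 (BHLH101) and 99.1 (OPT3) of all genes. Shares among genes of like level were not taken. IMA2 and BHLH38 had the largest differences, 1.48-fold and 1.41-fold. In 4 of the 10 (IMA2, BHLH38, BTS and IMA1) every mutant array lay above every wild type array, and in none did every mutant array lie below. Over all genes 9.3% had groups that did not overlap with the mutant higher, and 9.24% with the mutant lower.

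No regulator had an adjusted p under 0.05 in limma's moderated test with Benjamini-Hochberg adjustment, where 97 genes or 0.342% of the table did. That count over all genes lay between 14 and 48 when any 1 array was left out. Of the regulators 2, IMA2 and BHLH38, had an unadjusted p under 0.05, as did 12.2% of all genes. The count was 0 in each of the 15 alternatives tried as well, 1 of which measured only 4 of the 10, but with differences this small that says little about stability. The 95% confidence intervals of single genes, from limma's moderated spread, reached no higher than a fold of 1.93 (IMA2) and no lower than 0.666 (BHLH39). A 2-fold difference in either direction lay outside each of these 10 intervals, which are not adjusted for the number of genes. Intervals without moderation of the spread were not examined, and the 2-fold bound may not hold there. Standard errors of the 10 log2 fold changes lay between 0.16 and 0.22. In simulated data the same fit recovered 1 of 67 genes changed 1.5-fold, so true differences of this size would mostly not pass.

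The labels and the tissue were checked against PIP1;2 and marker genes. PIP1;2 had log2 values of 5.16, 5.51 and 5.18 in atpip1;2-1 leaves, against 8.73, 9.14 and 8.74 in wild type leaves, so the log2 fold change was -3.59 (SE 0.18, limma's adjusted p = 0.000148, and 0.1 in an exact two-sided permutation test, the smallest it allows). Without moderation of the spread its adjusted p was 0.103. Green leaf genes were well represented, with 10.46 to 10.73 for RBCS1A in the mutant and 10.29 to 10.59 in the wild type. The LHCB1.1 gene, which has near-identical copies, was dim on all arrays (1.41 to 3.02 in the mutant, 2.18 to 2.30 in the wild type). The 4 root hair markers averaged 2.18 to 2.48 per array in the mutant and 2.12 to 2.46 in the wild type, close to the level of 2.20 that bounds the dimmest 25% of genes. The array medians ranged from 3.78 to 3.84. All values are log2 values from RMA, a method that corrects background, normalizes between arrays and summarises the probes of a gene.

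The 4 subgroup Ib genes code for bHLH factors that act in part redundantly, and that pair with FIT in roots to switch on iron uptake. Of the 4, 3 had a higher mean in the mutant and 1 a lower mean, with none past the threshold. Whether their responses differ was not tested. BHLH38 had 6.42, 5.80 and 5.99 in atpip1;2-1 leaves, against 5.72, 5.48 and 5.52 in wild type leaves. The lowest mutant array lay just above the highest wild type array, and mutant replicate 1 stood well above the rest. The means were 6.07 ± 0.32 in the mutant and 5.57 ± 0.13 in the wild type (SD, n = 3), and the difference on the log2 scale was 0.50 (SE 0.19, 95% confidence interval 0.06 to 0.93, adjusted p = 0.346 by limma). Without mutant replicate 1 the log2 fold change of BHLH38 was 0.32.

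BHLH39 was the one regulator with a lower mean in the mutant. It had 5.59, 5.40 and 5.37 in atpip1;2-1 leaves, against 5.90, 5.66 and 5.25 in wild type leaves. The mutant arrays lay inside the range of the wild type arrays, which were spread widely. On the log2 scale the difference was -0.15 (SE 0.20, interval -0.59 to 0.29, adjusted p = 0.817 by limma), and without wild type replicate 1 it was 0.002, which leaves no direction.

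BHLH100 had 6.37, 6.45 and 6.16 in atpip1;2-1 leaves, against 6.49, 6.44 and 5.77 in wild type leaves. The groups overlapped, and wild type replicate 3 alone was low. Its difference on the log2 scale was 0.10 (SE 0.22, interval -0.39 to 0.58, adjusted p = 0.905 by limma), and it turned to -0.14 without that array. BHLH101 had 5.42, 5.62 and 5.86 in atpip1;2-1 leaves, against 5.20, 5.35 and 5.67 in wild type leaves. Both lines spanned a similar width and overlapped in most of it. For BHLH101 the log2 fold change was 0.23 (SE 0.19, interval -0.20 to 0.65, adjusted p = 0.678 by limma). The second deposited table, with 1 value per probe set, gave it 0.44 (SE 0.17, adjusted p = 0.358), with every mutant array above every wild type array. In the table per gene it was 0.12 without mutant replicate 3, 0.13 without wild type replicate 1 and 0.36 without wild type replicate 3.

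BHLH38 and BHLH39 are direct neighbours on chromosome 3, with 0 protein-coding genes between them in the RefSeq table, and are close paralogs. Taken within each array, the log2 value of BHLH38 minus that of BHLH39 was 0.83, 0.40 and 0.62 in atpip1;2-1 leaves, against -0.18, -0.18 and 0.28 in wild type leaves. The balance of the pair was shifted towards BHLH38 on all 3 mutant arrays. The shift averaged 0.65, with 0.62 ± 0.21 in the mutant and -0.03 ± 0.26 in the wild type (SD, n = 3), with p = 0.1 in an exact two-sided permutation test, the lowest possible with 3 arrays against 3. The sources used here do not say how probes were divided between the paralogs.

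**Figure D1:**
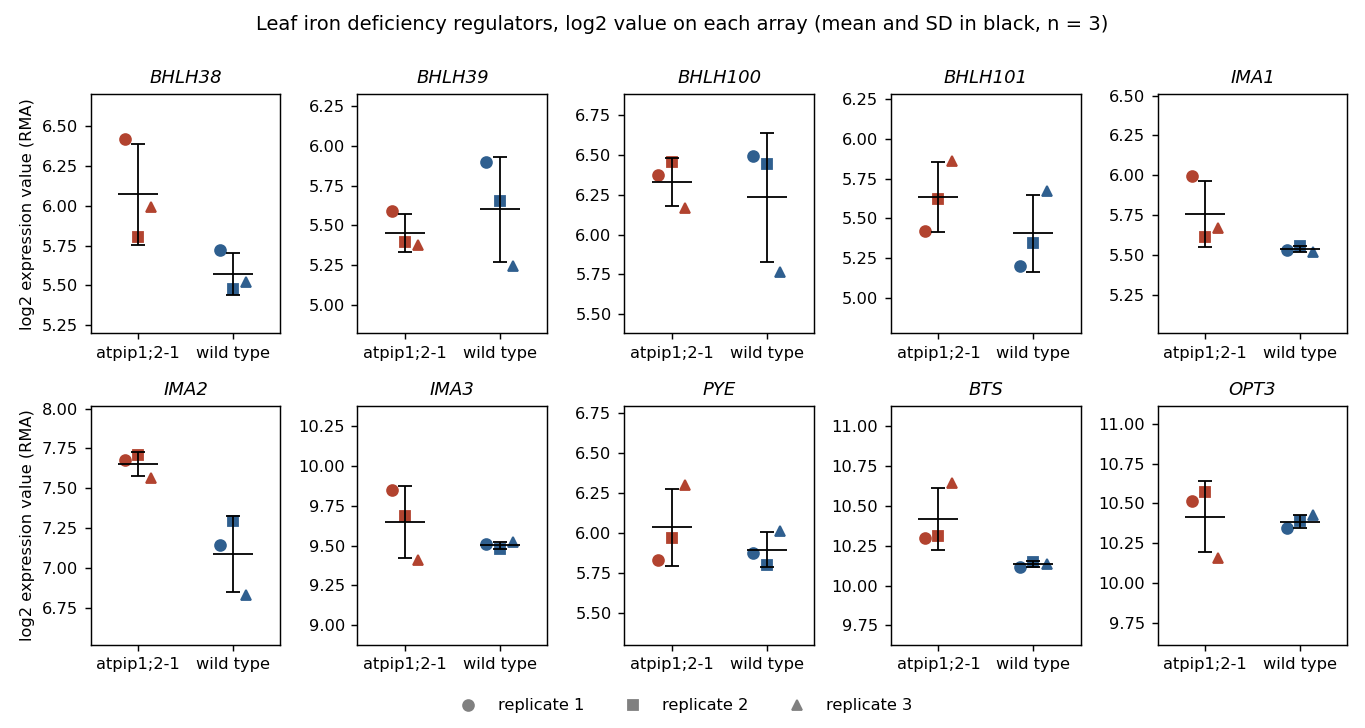
Each panel shows 1 regulator, with the log2 value of the 3 atpip1;2-1 arrays on the left (red) and of the 3 wild type arrays on the right (blue); marker shapes give the replicate number and black bars the mean and SD. Every panel spans the same range of log2 units, and only in BHLH38, IMA1, IMA2 and BTS do all mutant arrays lie above all wild type arrays.

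The IMA genes (IRON MAN, also called FEP genes) code for short peptides that activate iron uptake when overproduced, and the transcript of each accumulates under iron deficiency. All 3 had a higher mean in the mutant. IMA2 had 7.68, 7.71 and 7.57 in atpip1;2-1 leaves, against 7.15, 7.29 and 6.83 in wild type leaves. The groups were clearly apart, with the mutant arrays close to each other and the wild type arrays more spread. The means were 7.65 ± 0.07 in the mutant and 7.09 ± 0.24 in the wild type (SD, n = 3), and the log2 fold change of 0.56 (SE 0.17, interval 0.17 to 0.95) was the largest of the 10 regulators, with an adjusted p of 0.243 by limma. Over the alternatives IMA2 ranged from 0.27 in the probe-set table to 0.66, and its adjusted p by limma from 0.0922 to 0.538. In the probe-set table its groups barely missed overlapping, with a lowest mutant value of 6.85 and a highest wild type value of 6.8449.

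IMA1 had 5.995, 5.61 and 5.67 in atpip1;2-1 leaves, against 5.53, 5.56 and 5.52 in wild type leaves. The wild type arrays agreed almost exactly, and the mutant arrays lay above them, 1 of them by far. That is a log2 fold change of 0.22 (SE 0.17, interval -0.15 to 0.59, adjusted p = 0.638 by limma), or 0.10 without mutant replicate 1. In the probe-set table the groups overlapped, and the log2 fold change was 0.14. IMA1 and IMA2 are neighbours on chromosome 1 with 0 protein-coding genes between them. IMA2 minus IMA1 within each array was 1.68, 2.10 and 1.90 in the mutant, against 1.62, 1.74 and 1.31 in the wild type. The groups overlapped slightly, with a shift of 0.34 and p = 0.2 in an exact two-sided permutation test.

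IMA3 had 9.85, 9.68 and 9.41 in atpip1;2-1 leaves, against 9.51, 9.48 and 9.52 in wild type leaves. The wild type arrays were again tight, and the mutant arrays lay on both sides of them. The log2 fold change was 0.14 (SE 0.17, interval -0.23 to 0.52, adjusted p = 0.789 by limma). It was 0.04 without mutant replicate 1, 0.26 without mutant replicate 3 and 0.01 after quantile normalization was applied again. The platform annotation pairs the IMA3 locus with AT2G30760 on 2 probe sets, so the signals of these loci may not be separable.

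**Figure D2:**
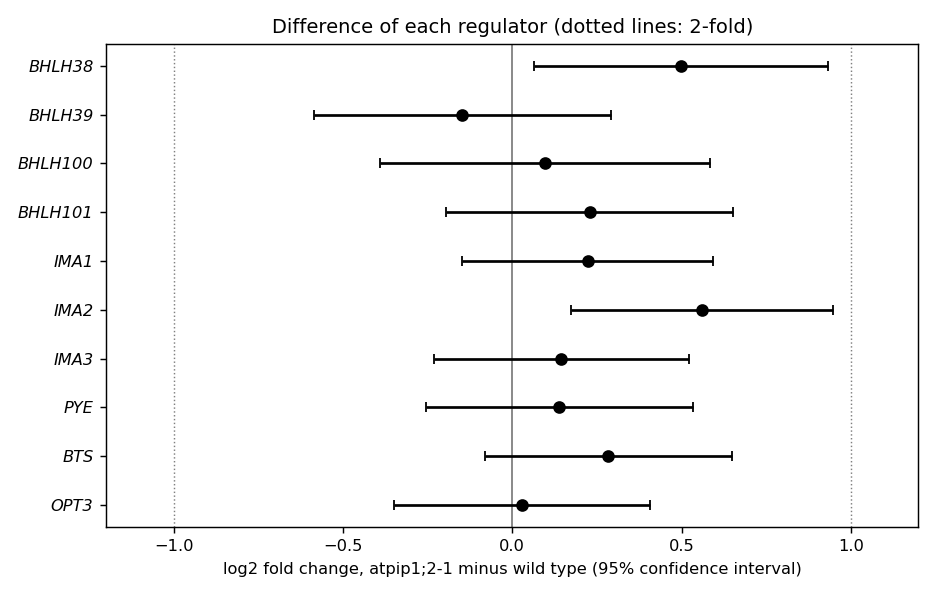
Log2 fold change of each regulator, atpip1;2-1 minus wild type, with its 95% confidence interval from limma (3 arrays per line); dotted lines mark 2-fold. The intervals of IMA2 (0.17 to 0.95) and BHLH38 (0.06 to 0.93) lie above 0 before adjustment for the number of genes, and no interval reaches 2-fold.

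PYE is a bHLH factor that represses genes of iron transport and storage. It had 5.83, 5.97 and 6.30 in atpip1;2-1 leaves, against 5.88, 5.80 and 6.01 in wild type leaves. The groups overlapped, and mutant replicate 3 was the highest array. The log2 fold change was 0.14 (SE 0.18, interval -0.25 to 0.53, adjusted p = 0.804 by limma). It was 0.01 without that array, 0.24 without mutant replicate 1 and 0.09 without wild type replicate 2.

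BTS had 10.30, 10.31 and 10.64 in atpip1;2-1 leaves, against 10.12, 10.15 and 10.14 in wild type leaves. Each mutant array was above the narrow band of the wild type, with mutant replicate 3 the farthest. The means were 10.42 ± 0.19 in the mutant and 10.14 ± 0.02 in the wild type (SD, n = 3), and the difference on the log2 scale was 0.28 (SE 0.16, interval -0.08 to 0.65, adjusted p = 0.528 by limma). It was 0.17 both without mutant replicate 3 and after quantile normalization was applied again.

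OPT3 had 10.52, 10.57 and 10.16 in atpip1;2-1 leaves, against 10.34, 10.39 and 10.43 in wild type leaves. It showed the smallest difference of the 10, with mutant arrays on both sides of the wild type. The log2 fold change was 0.03 (SE 0.17, interval -0.35 to 0.41, adjusted p = 0.968 by limma). The sign turned without mutant replicate 1 (-0.02), without mutant replicate 2 (-0.05) and after quantile normalization was applied again (-0.06).

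The regulators also differed in which array was high. Mutant replicate 3 held the highest value of BHLH101, PYE and BTS and the lowest of IMA3 and OPT3. Mutant replicate 1 held the highest value of BHLH38, IMA1 and IMA3. Wild type replicate 3 held the lowest value of BHLH39, BHLH100, IMA1 and IMA2. Mutant replicate 3 and wild type replicate 3 also held the largest shares of extreme values over all genes, with 20.4% and 19.3% of the highest values and 20.9% and 18.5% of the lowest. Averaged over the 10 regulators, the deviation from each gene's own mean was 0.16, 0.07 and 0.07 on the mutant arrays, against -0.05, -0.08 and -0.17 on the wild type arrays.

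**Figure D3:**
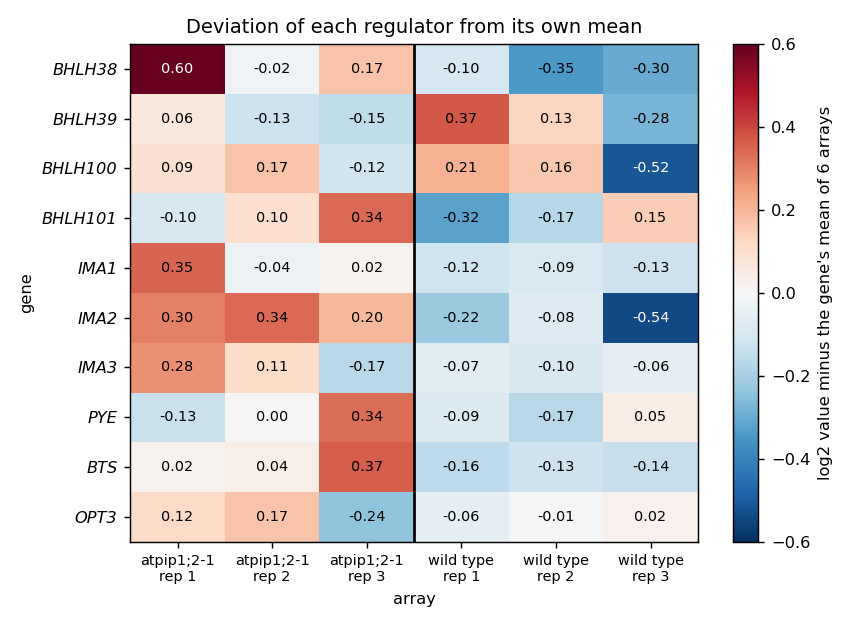
Rows are the 10 regulators and columns the arrays, atpip1;2-1 left of the line and wild type right of it; colour and number give the log2 value minus the gene's mean over the 6 arrays. BHLH38 in mutant replicate 1 (0.60) and IMA2 in wild type replicate 3 (-0.54) are the largest deviations, and BHLH101, PYE and BTS are all high in mutant replicate 3.

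Over the 6 arrays the mean profile of the 4 subgroup Ib genes was most like that of IMA2 among the other regulators by Pearson's r (r = 0.83, Spearman rho = 0.54). By rank IMA1 was closer (rho = 0.83, r = 0.72), while PYE (r = -0.05) and OPT3 (r = 0.02) did not follow it. The mean profile was not shared by all 4 subgroup Ib genes, although each is part of it. Their own r to it was 0.82 for BHLH38, 0.71 for BHLH100, 0.45 for BHLH39 and -0.19 for BHLH101. These correlations rest on 6 arrays in 2 lines and are given without a p. Among all other genes the closest profiles were those of RBL3 (AT5G07250), AT4G26120, VPS9A (AT3G19770), AT5G17720 and AT1G68935, with r from 0.99 to 1.00. They were picked as the closest of 28387 genes over 6 arrays, and their likeness is a description only. None of these 5 genes passed the test between the lines (log2 fold changes of 0.17 to 0.25).

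The factors upstream of the 10 regulators showed no common direction. Of 8 measured genes, the subgroup IVc factors ILR3, BHLH104, BHLH34 and BHLH115, the subgroup IVb factors URI and BHLH11, and the ligase genes BTSL1 and BTSL2, limma called none at the adjusted threshold, and 1 had an unadjusted p under 0.05. The list median was 0.08, with 5 of 8 higher in the mean. For this list and those below, 48.4% of all genes were higher in the mean, and 12.2% had an unadjusted p under 0.05 by limma. Groups did not overlap in 9.3% of all genes with the mutant higher and in 9.24% with the mutant lower. BHLH34 had 3.36, 3.35 and 3.53 in atpip1;2-1 leaves, against 3.86, 3.85 and 3.72 in wild type leaves. It was lower on every mutant array, with a log2 difference of -0.40 (SE 0.15, adjusted p = 0.338). BTSL1, a relative of BTS that acts mainly in roots, had 0.45 (SE 0.26, adjusted p = 0.534).

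Genes that handle iron within the shoot were measured at 18 loci, of which 14 had a higher mean in the mutant and limma called none at the adjusted threshold (unadjusted p under 0.05 in 4, median 0.09). NAS1 and NAS2 make nicotianamine, the chelator that carries iron between cells. NAS1 had 7.31, 7.29 and 6.64 in atpip1;2-1 leaves, against 6.61, 6.41 and 6.31 in wild type leaves, which differ by 0.64 on the log2 scale (SE 0.21, adjusted p = 0.279). NAS2 had 2.13, 2.31 and 1.93 in atpip1;2-1 leaves, against 2.88, 2.53 and 2.53 in wild type leaves, giving a difference of -0.52 (SE 0.18, adjusted p = 0.295). Neither passed, the lowest NAS1 value of the mutant lay only just above the highest of the wild type, and NAS2 was close to the dimmest 25% of genes. The other family members, NAS3 (0.16) and NAS4 (0.09), overlapped between the lines.

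Known targets of PYE are given for their role, and were chosen after their values were seen. The reductase gene FRO3 had 0.35 (SE 0.15, adjusted p = 0.377), with every mutant array above every wild type array. NAS4 had 0.09 (SE 0.18, adjusted p = 0.891) and the transporter gene ZIF1 had -0.10 (SE 0.16, adjusted p = 0.859), both less than their standard error away from 0.

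Ferritins store iron in plastids, and their transcripts are known to decline when iron is short. Among 7 genes of ferritins and vacuolar iron transporter-like proteins, 5 were lower in the mean, and limma called none at the adjusted threshold (unadjusted p under 0.05 in 0, median -0.05). FER3 had 4.10, 3.47 and 3.35 in atpip1;2-1 leaves, against 3.95, 4.29 and 3.96 in wild type leaves, giving a log2 difference of -0.42 (SE 0.22, adjusted p = 0.490). The groups overlapped through mutant replicate 1. FER2, a gene known mainly from seeds, had 0.29 (SE 0.16, adjusted p = 0.526). It was the only gene of the list without overlap, and it was higher in the mutant. FER1 had -0.14 (SE 0.26, adjusted p = 0.879) and overlapped between the lines.

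Copper and iron supply are linked in leaves, where plants swap copper and iron forms of superoxide dismutase. Of 9 genes of copper deficiency and superoxide dismutases, 6 were higher in the mean, 4 of them without overlap. Limma called none at the adjusted threshold (unadjusted p under 0.05 in 3, median 0.20). The iron form FSD1 had 0.20 (SE 0.15, adjusted p = 0.637), without overlap. The 3 genes with a lower mean were the copper forms CSD1 (-0.10, adjusted p = 0.873) and CSD2 (-0.41, adjusted p = 0.447), and CCS (-0.31, adjusted p = 0.586). All 3 overlapped between the lines. FRO4, a copper reductase gene of the copper deficiency response, had 6.46, 6.56 and 5.81 in atpip1;2-1 leaves, against 5.74, 5.58 and 4.78 in wild type leaves. Its mutant arrays all lay above the wild type arrays, if narrowly, with a log2 difference of 0.91 (SE 0.28, adjusted p = 0.248). Its neighbour FRO5 had 0.42 (SE 0.17, adjusted p = 0.355) and lay among the dimmest 25% of genes.

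Of 11 genes of root iron uptake, 5 lay among the dimmest 25% of genes, including the iron transporter genes IRT1 and IRT2, and 6 did not. Limma called none of the 11 at the adjusted threshold (unadjusted p under 0.05 in 3, median 0.05). FIT, the partner of the subgroup Ib factors in roots, had 3.40, 3.57 and 3.77 in atpip1;2-1 leaves, against 4.03, 4.70 and 4.18 in wild type leaves. It was lower on every mutant array, with a log2 difference of -0.72 (SE 0.21, adjusted p = 0.222). FRO2, the root ferric reductase gene, was higher on every mutant array, with 0.40 (SE 0.17, adjusted p = 0.399).

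Marker lists of other cells and of the time of day were set beside the regulators. All 5 phloem and vein markers had a higher mean in the mutant, 4 of them without overlap (9.3% over all genes). Limma called none of the markers at the adjusted threshold (unadjusted p under 0.05 in 3, and in 12.2% of all genes). Their mean log2 level per array was 7.12 to 7.32 in the mutant and 6.66 to 6.93 in the wild type, and the median log2 fold change was 0.44, led by the sucrose transporter genes SWEET11 (0.64, SE 0.18, adjusted p = 0.210) and SWEET12 (0.58, SE 0.19, adjusted p = 0.273). OPT3, which is active in the phloem, had 0.03, with a wide interval of -0.35 to 0.41. In bulk leaf RNA more cells of a type and more RNA per cell cannot be told apart, and the part of vein tissue in the values of the regulators was not tested. All 5 green leaf markers also had a higher mean in the mutant, 2 of them without overlap. Their median was 0.21, and their mean log2 level per array was 8.64 to 8.94 in the mutant and 8.59 to 8.66 in the wild type. Limma called none of them (unadjusted p under 0.05 in 0), with 0.32 for GAPA (adjusted p = 0.442) and 0.27 for RCA (adjusted p = 0.529).

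Transcripts of iron homeostasis can vary with the time of day, and the sources used here do not give the hour of harvest. Of 9 clock genes none passed with limma and 1 had an unadjusted p under 0.05 (median -0.09). TOC1, an evening gene, had 6.33, 6.29 and 6.38 in atpip1;2-1 leaves, against 6.85, 6.83 and 6.79 in wild type leaves. It was lower on every mutant array by a margin wider than the spread within either line, with a log2 difference of -0.49 (SE 0.15, adjusted p = 0.236). ELF4, another evening gene, had -0.39 (SE 0.22, adjusted p = 0.511) and overlapped between the lines. The clock genes that follow were named after their values were seen. LUX, also an evening gene, had -0.21 (adjusted p = 0.706) and overlapped, while the evening gene GI was higher, with 0.30 (adjusted p = 0.527). The morning genes LHY and CCA1 had 0.31 (adjusted p = 0.514) and 0.19 (adjusted p = 0.662). In the list 2 genes were higher without overlap (GI and LHY) and 2 were lower without overlap (TOC1 and PRR5). The mean log2 level of the 9 genes per array was 5.81 to 5.95 in the mutant and 5.93 to 5.99 in the wild type, and the part of the clock in the values of the regulators was not tested. The root hair markers, with a median of 0.02 and 0 at an unadjusted p under 0.05 by limma, had 0.19 for EXPA18 (adjusted p = 0.729) and -0.04 for RHD6 (adjusted p = 0.952).

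**Figure D4:**
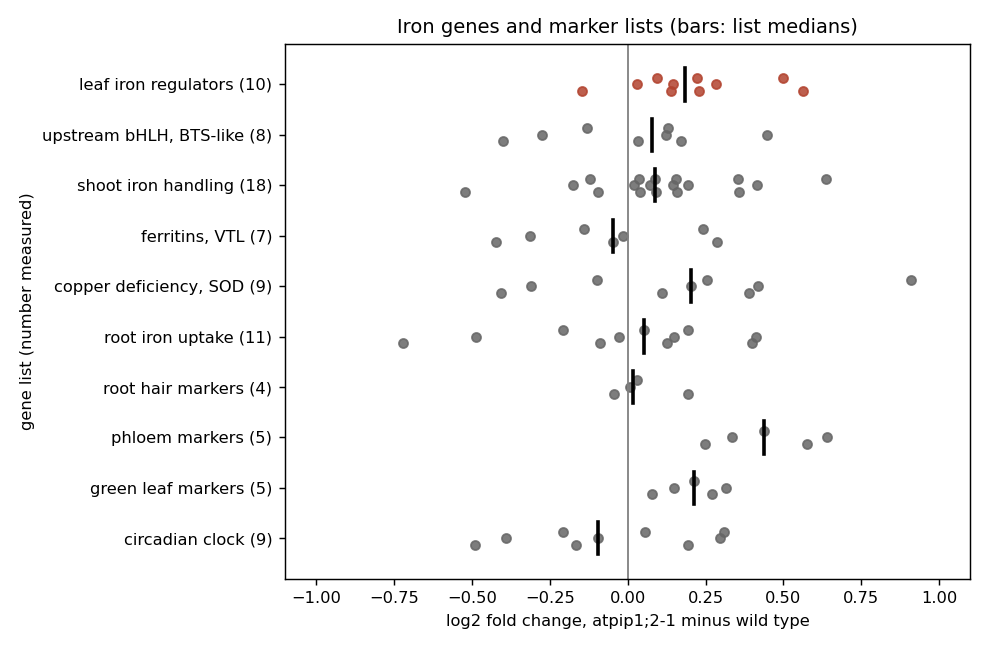
Each point is the log2 fold change of 1 gene, atpip1;2-1 minus wild type, by gene list (number measured in brackets), with the list median as a black bar; the 10 regulators are in red. The regulators have a median of 0.18, the copper list of 0.20, the green leaf markers of 0.21 and the phloem markers of 0.44. The ferritin and clock lists have medians just below 0.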

How the data were processed

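Leaf RNA of 2 lines was measured on 6 arrays, 3 per line. The authors deposited log2 expression values, with 1 value for each AGI code on each array. The submitters' processing notes name RMA and Partek; how probes were assigned to genes, and the genome build, are not stated in the sources used here. The scale of a second deposited table, with 1 value per probe set, was taken as log2 from its values. The platform annotation named 4 of the 10 regulators in it with 1 gene. The tables hold no detection calls or scan dates, so neither detection nor a batch could be tested, and precision is limited by the number of arrays.

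All 28387 genes were fitted with limma 3.58.1 in R 4.3.3 (lmFit, eBayes, two-sided, no covariate) and adjusted by Benjamini-Hochberg over the whole table, and the regulators were read from that fit. Differences are mutant minus wild type. A difference within a neighbour pair was tested with an exact permutation test over arrays. Genes named were the 10 regulators, PIP1;2, the genes past the threshold in each list or else the 2 with the smallest unadjusted p, and the 5 closest profiles; other list members were named for their role or as examples after their values were seen. The regulators and lists were chosen with earlier results of these data known. The labels describe the replicates as biological. Gene symbols came from the RefSeq table of TAIR10.1, in which 27681 genes were found, and otherwise from the lists. No coordinates or sequences are given. The fit was tested on simulated data. Alternatives were the probe-set table, filters on dim genes, other moderation, array weights, further normalization, the replicate number as a block and each array left out. Figures were drawn with matplotlib 3.10.9 in Python 3.11.15.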

Additional observations from a re-analysis of the deposited data

How the results depend on the processing

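The count of regulators past the threshold was 0 in all 15 alternatives, which says little for differences this small, with the smallest adjusted p at 0.0922 (IMA2, eBayes with trend and robust fitting). The count of regulators higher in the mean lay between 8 and 10, and that of regulators without overlap between 3 and 6, in the 14 alternatives that measured all 10. The median log2 fold change lay there between 0.15 and 0.22. The count without overlap reached 6 only without mutant replicate 3 or wild type replicate 3, and fewer arrays separate more easily. The share of all genes without overlap was not taken in any alternative. The probe-set table named 4 regulators, of which 4 were higher and 2 did not overlap, with a median of 0.24. Directions turned for OPT3 (-0.0598 after quantile normalization again, -0.02 and -0.0485 without mutant replicate 1 and 2, with a range of -0.0485 to 0.1565 over arrays left out), for BHLH39 (0.0021 without wild type replicate 1, range -0.3243 to 0.0021) and for BHLH100 (-0.14 without wild type replicate 3). The other 7 regulators kept theirs in every alternative that measured them.

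Over all genes, 97 passed in the reported fit, 34 in the probe-set table (16505 genes tested), 196 without the dimmest 50% of genes, 375 with trend and robust fitting and 0 without moderation of the spread, where PIP1;2 kept -3.59 with an adjusted p of 0.103. Leaving out mutant replicate 1, 2 or 3 gave 22, 35 or 24, and wild type replicate 1, 2 or 3 gave 38, 14 or 48. With the replicate block 45 genes passed. Deviations of same-numbered arrays were hardly correlated over genes, with 0.01, 0.05 and 0.07. For arrays with unlike numbers the correlations lay between -0.08 and 0.05. Whether arrays of the same number were handled together was not tested. The causes were not tested. With 3 arrays per line and no background values, neither small differences nor detection could be settled.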
